A study of Triticum turgidum with 12 samples.

Results

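The glyoxylate cycle enzymes isocitrate lyase (ICL) and malate synthase (MLS), together with phosphoenolpyruvate carboxykinase (PCK1), were followed in flag leaves of a pale-green durum wheat mutant and its wild-type. They were represented by 5 of the 61290 probe sets on the Affymetrix Wheat Genome Array. Isocitrate lyase had 3 probe sets (TaAffx.79139.1.S1_at, Ta.23989.1.A1_at and TaAffx.79218.1.S1_at), malate synthase had Ta.23970.1.A1_x_at and PCK1 had Ta.13280.1.S1_a_at. The members were chosen by their signals in the genotype by treatment groups of these same arrays, on which the study listed them as modulated by water stress. It listed Ta.23989.1.A1_at, TaAffx.79218.1.S1_at, malate synthase and PCK1 as upregulated in the wild-type only. For the genes of isocitrate lyase and malate synthase it reported no effect of stress in the mutant and lower levels there than in the stressed wild-type. TaAffx.79139.1.S1_at was not among the isocitrate lyase probe sets it listed as upregulated in the wild-type only, so that statement may not cover it. The members' differences between groups are therefore given as a description, without p-values for single members. Counts of members that passed a threshold are a description too.

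The wild-type was the durum variety Borgia, and the mutant was MD-597, a pale-green line obtained from Borgia with sodium azide and backcrossed to it. It is 1 line, and the gene that carries the mutation was not identified in the sources used here. Plants of both genotypes grew in a glasshouse in soil kept at its maximum water holding capacity (control), or with watering reduced from booting, Zadoks stage 45, onwards (water stress). Flag leaves were taken at anthesis. Each of the 4 groups had 3 arrays, 12 in all, each with RNA pooled from several plants. In such whole-leaf RNA, fewer cells of a type and less RNA per cell cannot be told apart.

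The glyoxylate cycle is a shortened form of the TCA cycle. Isocitrate lyase splits isocitrate into succinate and glyoxylate, and malate synthase joins the glyoxylate with acetyl-CoA to form malate. The steps of the TCA cycle that release CO2 are bypassed, so that carbon from fatty acids can be turned into organic acids. PEP carboxykinase then converts oxaloacetate into phosphoenolpyruvate, the entry to sugar synthesis. The pathway is best known from germinating oilseeds, and its enzymes are also known from senescing leaves.

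The deposited values were MAS5 intensities on a linear scale, and no detection calls were used. Every array had the same trimmed mean of 500.3. Array medians lay between 50.4 and 66.4 (log2 5.66 to 6.05), and values around or under them are called near background here. A probe set was retained if 1 or more groups had it over the 60th percentile on each of their 3 arrays, which left 24590. All 5 members passed. The isocitrate lyase and malate synthase probe sets passed only through the wild-type under water stress, so that group had to stand above the array median, whereas PCK1 passed in every group. The 3′ to 5′ signal ratio of the glucose-6-phosphate dehydrogenase control was 15.7 on replicate 2 of the stressed wild-type and 15.2 on replicate 3 of the stressed mutant, and 10.6 or less on the other arrays. Its part in the results was not tested.

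Isocitrate lyase, the first enzyme particular to the cycle, was low in control leaves and had clearly measurable intensities in water-stressed wild-type leaves. On TaAffx.79139.1.S1_at, the wild-type under control had intensities of 5.36, 34.6 and 82.1 in replicates 1, 2 and 3. Under water stress the wild-type had 492, 380 and 1910 on that probe set. The stressed wild-type arrays lay at percentiles 75.8 to 90.6 of all probe sets, and all were above the control arrays.

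The mutant had 7.53, 10.1 and 1.52 on TaAffx.79139.1.S1_at under control, at percentiles 3.2 to 21.7. Under water stress it had 402, 242 and 37.7. The stressed mutant arrays were all above the mutant controls, but replicate 3 stayed below its array median. Mean log2 intensities ± SD (n = 3) were 4.63 ± 2.01 and 9.47 ± 1.25 in the wild-type under control and stress. In the mutant they were 2.28 ± 1.47 and 7.27 ± 1.80.

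The second isocitrate lyase probe set, Ta.23989.1.A1_at, had 42.1, 63.5 and 152 in the wild-type under control and 418, 160 and 1175 under water stress. In the mutant it had 39.5, 22.4 and 2.45 under control and 284, 164 and 50.8 under water stress. In both genotypes the stressed arrays lay above the control arrays, with a narrow gap in the wild-type between 152 and 160. The mutant controls lay below every wild-type control.

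The third isocitrate lyase probe set, TaAffx.79218.1.S1_at, moved over a narrower range. It had 113, 32.6 and 85.4 in the wild-type under control and 153, 232 and 410 under water stress. The mutant had 66.4, 22.3 and 69.4 under control and 272, 118 and 45.9 under water stress. The wild-type groups did not overlap, while in the mutant replicate 3 under stress fell among the controls.

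The isocitrate lyase probe sets shared the position of their extreme arrays. Replicate 3 was the highest of the stressed wild-type and the lowest of the stressed mutant on all 3 of them. Replicate 3 was also the lowest mutant control on TaAffx.79139.1.S1_at and Ta.23989.1.A1_at, but the highest on TaAffx.79218.1.S1_at. Replicate 3 of the stressed mutant and replicate 2 of the stressed wild-type had the high 3′ to 5′ ratios given above (15.2 and 15.7). The latter was the lowest stressed wild-type array on TaAffx.79139.1.S1_at and Ta.23989.1.A1_at, but not on TaAffx.79218.1.S1_at. A link was not tested. Centred profiles of the first pair were 1.21 log2 units apart over the 12 arrays (root mean square), and TaAffx.79218.1.S1_at was 2.33 and 1.64 from them. The files do not say whether the probe sets stand for different gene copies.

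Malate synthase, the second enzyme particular to the cycle, followed the same order of groups with less spread in the wild-type. Ta.23970.1.A1_x_at had 92.9, 73.2 and 65.7 in the wild-type under control and 559, 290 and 772 under water stress. The mutant had 84.6, 15.1 and 27.9 under control and 289, 107 and 85.9 under water stress. In both genotypes the stressed arrays were above the controls. Under stress every mutant array was below every wild-type array, by a narrow margin between 289 and 290. In the mutant, replicate 3 under stress was only slightly above replicate 1 under control (85.9 against 84.6).

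The same sequence cluster had a second malate synthase probe set, Ta.23970.1.A1_at, which did not pass the filter. It had 57.0, 81.5 and 164 in the wild-type under control and 275, 86.8 and 705 under stress, with overlapping groups. Its mutant values were 139, 32.6 and 6.80 under control and 332, 66.4 and 70.2 under stress. The overlap was thus present in both genotypes for this probe set. The suffix x of Ta.23970.1.A1_x_at marks a probe set some of whose probes also match other, similar transcripts.

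PCK1, the only member that was strongly expressed without stress, had intensities of 1479, 1355 and 1349 in the wild-type under control, at percentiles 87.9 to 88.7. Under water stress the wild-type had 3492, 4269 and 2220. The mutant had 1125, 1784 and 1554 under control and 2627, 2455 and 2198 under water stress. Stressed arrays were above the controls in both genotypes, and the stressed mutant arrays overlapped those of the wild-type, since replicate 3 of the wild-type was low.

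The other probe sets of the PCK1 cluster had the same order. Ta.13280.2.A1_at had 5208, 3713 and 4346 in the wild-type under control and 9182, 12290 and 6578 under stress. In the mutant it had 3864, 4245 and 5497 under control and 7102, 6429 and 5967 under stress. Ta.13280.3.S1_at differed less between treatments. Its mean log2 intensities under control and stress were 8.92 ± 0.16 and 9.69 ± 0.49 for the wild-type, against 9.01 ± 0.32 and 9.59 ± 0.19 for the mutant (SD, n = 3). Replicate 3 was the lowest stressed wild-type array on all 3 PCK1 probe sets, whereas on isocitrate lyase and malate synthase it was the highest.

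**Figure D1:**
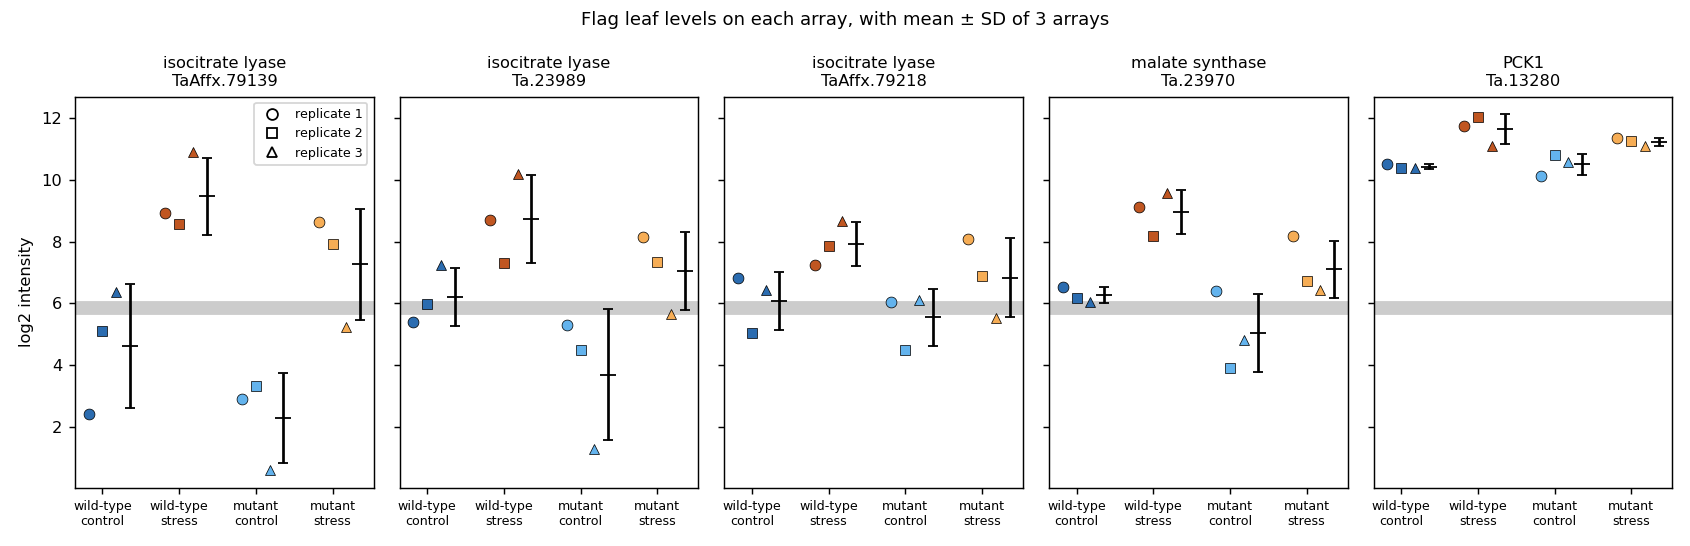
Log2 intensity of the 5 probe sets on each of the 12 arrays. Circles, squares and triangles are replicates 1, 2 and 3, the black bars give the mean ± SD of 3 arrays, and the grey band is the range of the array medians (5.66 to 6.05). PCK1 lies far above the band in every group, while isocitrate lyase and malate synthase range under control from log2 0.60 in the mutant to 7.25 in the wild-type, on both sides of it.

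By mean log2 intensity, the isocitrate lyase and malate synthase probe sets all had the same order of groups, from the stressed wild-type over the stressed mutant and the wild-type control to the mutant control. Only some neighbours in that order were separate. The stressed mutant overlapped the wild-type control on all 4 of these probe sets. It overlapped the stressed wild-type on the isocitrate lyase probe sets but not on malate synthase. The controls of the genotypes were separate on Ta.23989.1.A1_at alone. For PCK1 the control groups overlapped each other, as did the stressed groups, and a gap separated the stressed mutant (2198 and above) from the mutant controls (1784 and below).

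In the wild-type, all 5 probe sets had higher means under water stress than under control, by a median of 2.53 log2 units against 0.01 over all kept probe sets. All 5 lay entirely above their controls, which was true of 21.9% of kept probe sets, a count that the choice of members fixed. The difference was 4.84 ± 1.12 (SE) on TaAffx.79139.1.S1_at, 2.53 ± 1.01 on Ta.23989.1.A1_at and 1.84 ± 0.68 on TaAffx.79218.1.S1_at. Malate synthase differed by 2.71 ± 0.60 and PCK1 by 1.20 ± 0.21, or 2.30-fold. PCK1 had the smallest difference and the smallest error.

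In the mutant, the members also had higher means under water stress, by a median of 2.07 log2 units against 0.04 over all kept probe sets. The stressed arrays of 4 of the 5 were entirely above the controls (23.6% of kept probe sets). The log2 differences of the isocitrate lyase probe sets, in the order above, were 4.99 ± 1.12, 3.36 ± 1.01 and 1.28 ± 0.68 (SE). Malate synthase differed by 2.07 ± 0.60 and PCK1 by 0.73 ± 0.21, or 1.66-fold.

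The size of the isocitrate lyase response in the mutant depended on how values below the array median were treated. With 32 added to every intensity before the logarithm, the mutant response was 2.40 on TaAffx.79139.1.S1_at and 1.75 on Ta.23989.1.A1_at. With the same offset the wild-type had 3.51 and 2.11. Without the offset the mutant difference was the greater one on both probe sets, and with it the wild-type difference was. The offset hardly moved PCK1, which had 1.19 for the wild-type and 0.71 for the mutant.

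**Figure D2:**
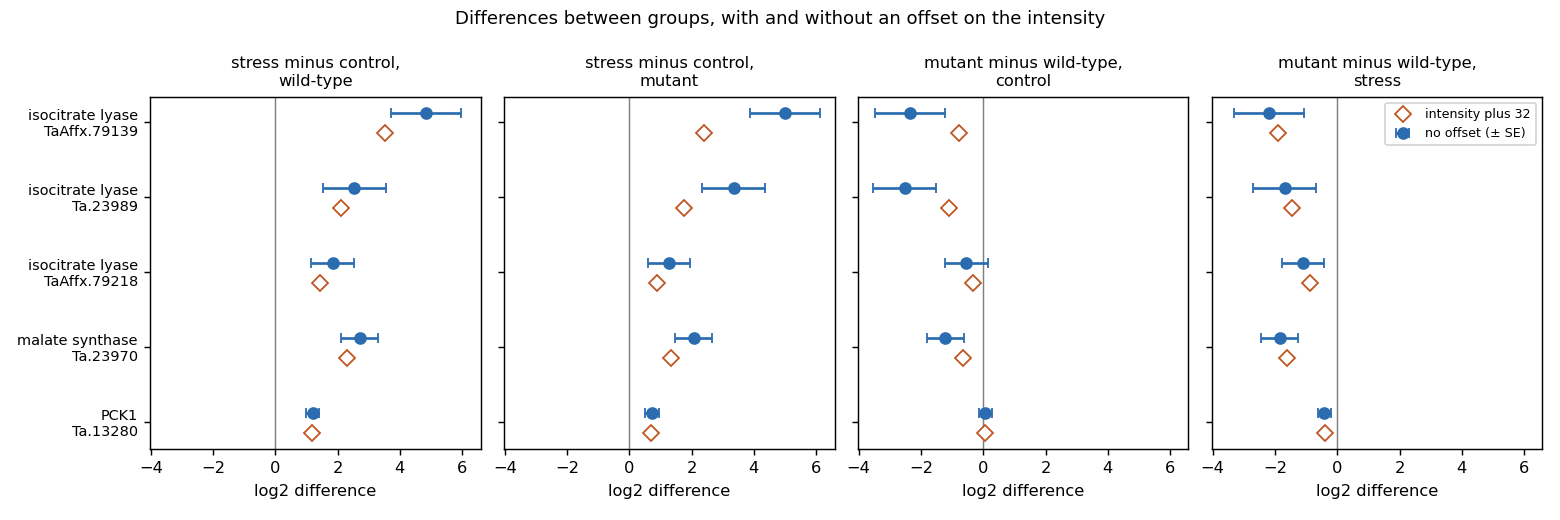
Log2 differences of the 5 probe sets in 4 comparisons. Filled circles with bars are the differences without an offset ± SE, and open diamonds are the same differences with 32 added to each intensity. For TaAffx.79139.1.S1_at in the mutant the response is 4.99 without and 2.40 with the offset, and the PCK1 values coincide.

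Under water stress, all 5 probe sets had lower mutant means than wild-type means, with a median difference of -1.69 log2 units against 0.01 over all kept probe sets. The groups were separate for 1 of the 5, malate synthase (9.33% of kept probe sets lay entirely lower), at -1.85 ± 0.60 (SE). The isocitrate lyase probe sets had -2.20 ± 1.12, -1.69 ± 1.01 and -1.10 ± 0.68, and PCK1 had -0.41 ± 0.21. Single arrays weighed heavily. Without replicate 3 of the stressed mutant the differences were -1.19 on TaAffx.79139.1.S1_at and -0.45 on TaAffx.79218.1.S1_at. Without replicate 3 of the stressed wild-type, Ta.23989.1.A1_at was at -0.96 and PCK1 at -0.67.

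The difference between the genotypes in their response to stress had no common direction over the members. The interaction (mutant response minus wild-type response) was 0.15 ± 1.58 (SE) on TaAffx.79139.1.S1_at and 0.83 ± 1.42 on Ta.23989.1.A1_at. It was -0.57 ± 0.96 on TaAffx.79218.1.S1_at, -0.64 ± 0.85 on malate synthase and -0.48 ± 0.30 on PCK1. With the offset of 32 all were below 0, the first pair at -1.10 and -0.35. Leaving out single arrays moved the interaction across 0 for all isocitrate lyase and malate synthase probe sets, but for PCK1 it stayed between -0.74 and -0.27.

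Under control conditions, 4 of the 5 had lower means in the mutant, and PCK1 differed by less than its error. This too is a description, since the control groups were among the signals that chose the members. None of the 5 reached an adjusted p under 0.05 with 2-fold, and 0% of all kept probe sets did (limma, Benjamini-Hochberg over 24590 probe sets). The smallest adjusted p of any kept probe set was 0.0516 (limma), so the count of 0 is not particular to the members. Ta.23989.1.A1_at of isocitrate lyase was lower on all 3 mutant arrays, at a log2 difference of -2.52 ± 1.01 (SE) without and -1.09 with the offset of 32, its mutant controls lying under their array medians. Such separation downwards was seen for 7.36% of kept probe sets. Without replicate 3 of the mutant control the difference was -1.32.

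TaAffx.79139.1.S1_at had a difference of -2.35 ± 1.12 under control, and malate synthase -1.22 ± 0.60. Both had overlapping groups. With the offset they were -0.78 and -0.66. TaAffx.79218.1.S1_at had -0.54 ± 0.68. PCK1 was at 0.07 ± 0.21, a 1.05-fold difference. At an unadjusted p under 0.05 with 2-fold, 1 member was lower in the mutant, as were 0.354% of kept probe sets. Because the choice of members used these groups, that count is not evidence about them.

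Whether the 3 genes moved together between replicates was examined from the deviations of the 12 arrays from their group means. The members were chosen on these same arrays, and the study's test for listing genes weighed the spread within groups. For isocitrate lyase and malate synthase, the filter also needed each of the 3 stressed wild-type arrays to pass. The deviations are therefore not independent of the choice, and its effect on the p-values below was not tested. The mean of the isocitrate lyase probe sets and malate synthase had a Pearson r of 0.554 (exact permutation within groups, two-sided, p = 0.138, adjusted over 3 relations p = 0.209). The rank correlation, Spearman's rho, came to 0.552 (p = 0.12 by exact permutation, 0.359 after adjustment). Without the 2 arrays farthest from the median on the isocitrate lyase axis, replicates 1 and 3 of the stressed mutant, r was 0.378. The relation did not pass the test.

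The correlations of PCK1 were below 0. Its r was -0.404 with isocitrate lyase (exact permutation p = 0.275, adjusted p = 0.275, rho -0.294 with exact permutation p = 0.404, adjusted p = 0.404). With malate synthase its r was -0.584 (exact permutation p = 0.14, adjusted p = 0.209, rho -0.448 with exact permutation p = 0.278, adjusted p = 0.404). Neither passed the test. Without the 2 farthest arrays the values were -0.702 and -0.656. Replicate 3 of the stressed wild-type, at 1.21 for isocitrate lyase, 0.62 for malate synthase and -0.53 for PCK1, weighed on the relation with isocitrate lyase, whose r was -0.10 without that array. For malate synthase, replicate 1 of the mutant control (1.36, with PCK1 at -0.38) weighed most, and r was -0.36 without it.

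**Figure D3:**
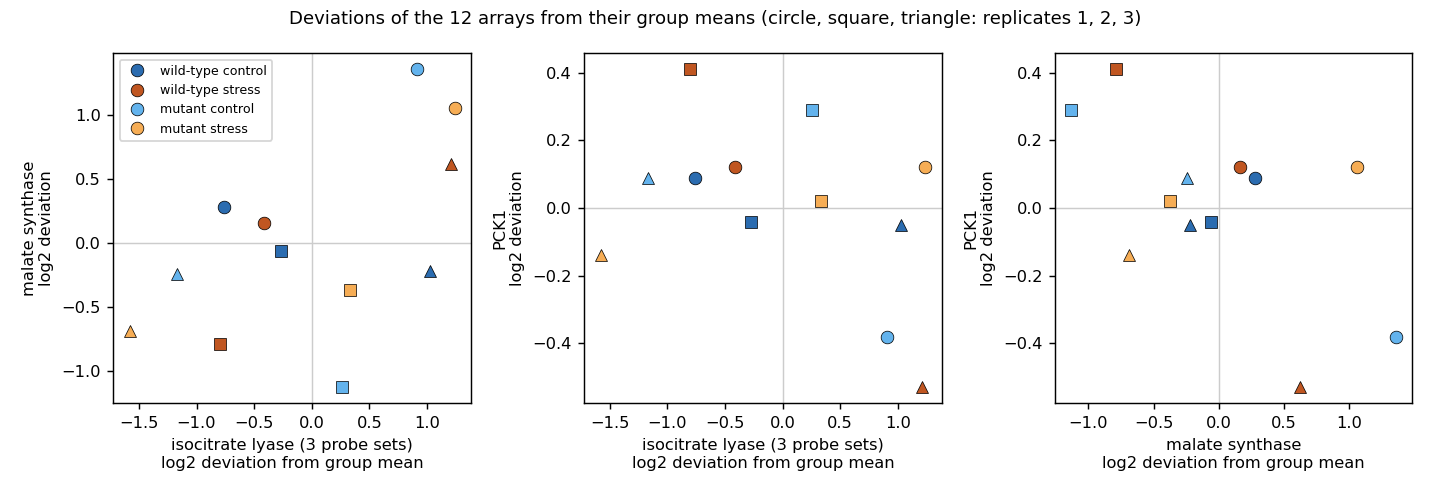
Deviations of each array from its group mean, in log2 units, for isocitrate lyase (mean of 3 probe sets), malate synthase and PCK1. Points are the 12 arrays, coloured by group, with circles, squares and triangles for replicates 1, 2 and 3. Replicate 3 of the stressed wild-type lies at 1.21 for isocitrate lyase and -0.53 for PCK1.

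The probe sets whose profiles over the 12 arrays were most like that of isocitrate lyase were looked for among all 24587 other kept probe sets, by the root mean square difference of centred log2 intensities. Those named by the study are given here. The closest was an endonuclease, Ta.5497.1.A1_at, at 0.66, followed by the papain-like cysteine proteinase PAP-14, Ta.10390.1.S1_at, at 0.72. The dehydrin WZY1-1, Ta.13255.1.S1_at, was at 0.75. The RAB protein Ta.2638.1.S1_at was at 0.90, with 5 unnamed probe sets as close or closer. Malate synthase came next at 0.91, rank 12, with 7 unnamed ones as close or closer. The median over all was 2.02.

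Endonucleases and papain-like proteinases break down nucleic acids and proteins, and dehydrins are hydrophilic proteins that accumulate in drying tissue. The endonuclease had 292 to 632 in the wild-type under control and 1268 to 3221 under stress, against 94.1 to 293 and 340 to 1172 in the mutant. PAP-14 had 254 to 569 and 1276 to 3626 in the wild-type, against 72.0 to 222 and 970 to 1658 in the mutant. Both had their lowest group in the mutant controls and their highest in the stressed wild-type, the order seen for isocitrate lyase. Since both were picked for likeness to isocitrate lyase on these arrays, that shared order followed from the choice. PCK1 was less close than malate synthase, at 1.71 and rank 1155 of 24587, but closer than the median of 2.02. The measure was not scaled for the size of the changes, which were small for PCK1. From the isocitrate lyase probe set TaAffx.79218.1.S1_at alone, PCK1 was 1.00 and malate synthase 0.83 apart. From TaAffx.79139.1.S1_at alone they were 2.67 and 1.89 apart, and from Ta.23989.1.A1_at 1.97 and 1.18. Such single distances were not computed for the endonuclease, PAP-14 or the dehydrin.

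**Figure D4:**
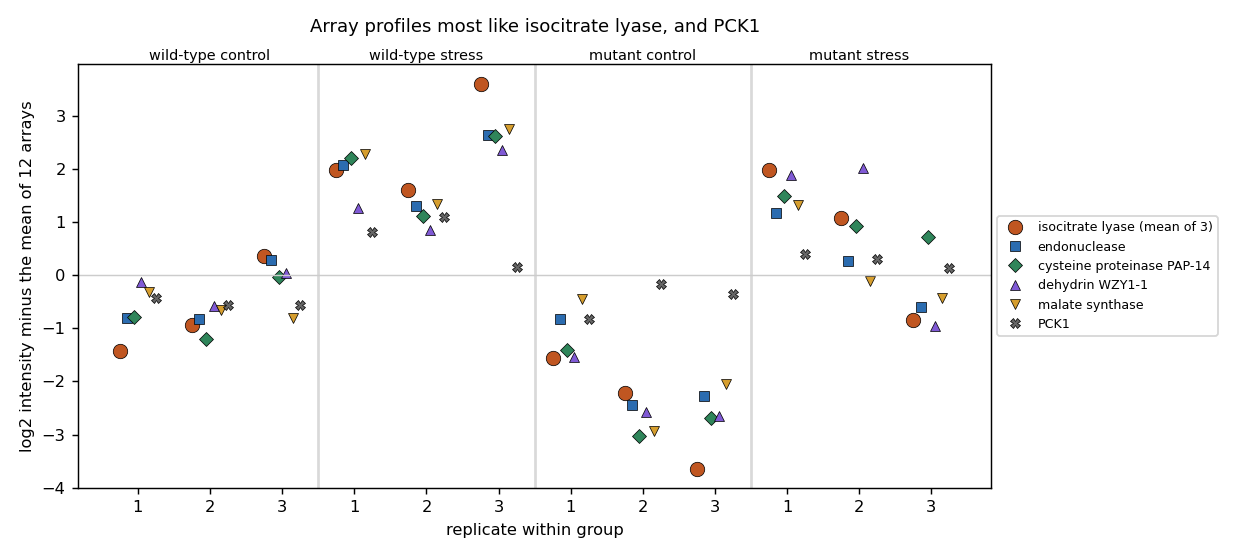
Log2 intensity minus the mean of the 12 arrays for isocitrate lyase, the 3 closest named probe sets, malate synthase and PCK1. Each column is 1 array, and replicates within a group have no order. The endonuclease (0.66 from isocitrate lyase), PAP-14 (0.72) and the dehydrin (0.75) are higher under stress in both genotypes, as isocitrate lyase is, while PCK1 keeps within a narrower range.

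The surrounding metabolism was described with 12 further probe sets for 11 genes, taken from the study's tables. They include the PCK1 probe set Ta.13280.2.A1_at, 1 of those that rose in the wild-type. Glutamate metabolism was left out, although the study put it under the same heading as the members. The study reported its genes as downregulated by stress in the mutant only. The study chose the listed probe sets on these arrays, so that their direction is not independent evidence. In the wild-type, 7 of the 12 rose under water stress and 0 fell at an adjusted p under 0.05 and 2-fold (limma), where 3.07% of kept probe sets rose and 4.19% fell. At an unadjusted p under 0.05 with no fold minimum, 9 were higher and 2 lower, and the mutant had the same counts. In the mutant 3 rose and 1 fell, where 3.42% rose and 5.49% fell. The list's median was 1.11 log2 units for the wild-type and 0.61 for the mutant. Its median interaction was -0.48, and 0 of the 12 were called for it by limma (0.159% of kept probe sets), with 3 below 0 at an unadjusted p under 0.05. Between the genotypes, 0 of the 12 were called under stress (0.708% of kept probe sets) and 0 under control, against 7 and 1 lower in the mutant at an unadjusted p under 0.05. The share of kept probe sets at an unadjusted p without a fold minimum was not computed. The unadjusted counts therefore have no background beside them.

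Malic enzymes convert malate, the product of the cycle, into pyruvate. NADP-ME3 (Ta.25543.2.S1_at) had 3929, 4736 and 3862 in the wild-type under control and 11760, 7765 and 10500 under stress, a rise of 1.25 ± 0.15 log2 units (SE, limma adjusted p = 0.000141). In the mutant it went from 3794, 3674 and 4766 to 5947, 6708 and 7362, a difference of 0.71 ± 0.15 that was significant but under 2-fold (limma adjusted p = 0.00465). NADP-ME4 was at 0.86 ± 0.21 in the wild-type, likewise under 2-fold (limma adjusted p = 0.0104), and at 0.30 ± 0.21 in the mutant (limma adjusted p = 0.313).

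PYD4, an alanine-glyoxylate transaminase that uses glyoxylate, the compound made by isocitrate lyase, rose in both genotypes. It had 1549, 1206 and 1641 in the wild-type under control and 5273, 5395 and 5281 under stress, or 1.87 ± 0.15 log2 units (SE, limma adjusted p = 6.01e-06). In the mutant it had 1159, 844 and 863 under control and 2965, 3641 and 2800 under stress, or 1.72 ± 0.15 (limma adjusted p = 1.23e-05). The mutant arrays were below the wild-type arrays under both treatments. Under stress PYD4 was lower in the mutant by 1.71-fold (limma adjusted p = 0.0196, under 2-fold).

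Breakdown of leucine and the other branched-chain amino acids yields acetyl-CoA. Of the 6 listed probe sets for the metabolism of these amino acids, 4 rose in the wild-type. BCKDHE1a, a subunit of the branched-chain keto acid dehydrogenase, rose by 1.55 ± 0.17 log2 units (SE, limma adjusted p = 5.19e-05) and in the mutant by 1.04 ± 0.17 (limma adjusted p = 0.00072). BCE2, another subunit, rose by 1.24 ± 0.15 (limma adjusted p = 9.98e-05) and MCCB, of methylcrotonoyl-CoA carboxylase, by 1.10 ± 0.14 (limma adjusted p = 0.000174). In the mutant both were significant but under 2-fold, at 0.55 and 0.45. Under stress both were lower in the mutant, by 1.57-fold and 1.56-fold (limma adjusted p = 0.035 and 0.0322), again under 2-fold.

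MCCA, the other carboxylase subunit, rose in the wild-type on 1 of its 2 probe sets (1.12 ± 0.21, limma adjusted p = 0.00192). The other was at 0.83 ± 0.19, under 2-fold (limma adjusted p = 0.00817). In the mutant they were at 0.67 ± 0.21 and 0.76 ± 0.19, significant but under 2-fold (limma adjusted p = 0.0282 and 0.0109). The branched-chain aminotransferase BCAT3 had a low mutant control array, as isocitrate lyase did. Its mutant controls were 86.8, 75.0 and 4.23, the last again in replicate 3, and its stressed mutant arrays 348, 282 and 251 (3.27 ± 0.84, limma adjusted p = 0.0116). In the wild-type BCAT3 went from 117, 69.1 and 117 to 338, 339 and 281, which did not pass the test (1.70 ± 0.84, limma adjusted p = 0.167). Without replicate 3 of the mutant control, the adjusted p of that wild-type difference was 0.000793.

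Pyruvate decarboxylase, which turns pyruvate into acetaldehyde, went down. PDC2 had 9458, 8403 and 8565 in the mutant under control and 3415, 3719 and 5004 under stress, a fall of 2.20-fold (limma adjusted p = 6.06e-05). In the wild-type it had 7842, 7663 and 7540 under control and 4382, 3836 and 3623 under stress, 1.95-fold lower and so just under 2-fold (limma adjusted p = 0.000208). The second probe set for this enzyme, PDC, was at -0.67 ± 0.15 log2 units for the wild-type, and the mutant had -0.99 ± 0.15 (limma adjusted p = 0.00654 and 0.000467).

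**Figure D5:**
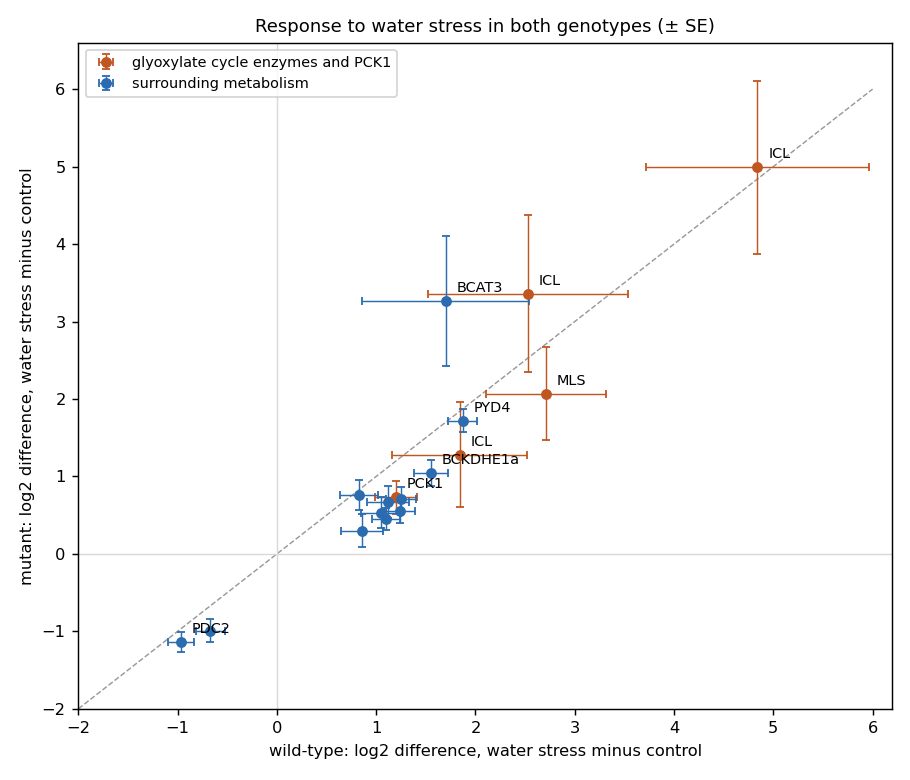
Log2 difference between water stress and control in the wild-type (horizontal) and in the mutant (vertical), each ± SE, for the 5 members and the 12 probe sets of the surrounding metabolism. The dashed line marks equal responses. Most of the surrounding metabolism lies just below the line, with medians of 1.11 and 0.61, and BCAT3 (1.70 and 3.27) lies above it.

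Leaf markers moved with some of the same comparisons. The 7 probe sets stood for 3 genes, the Rubisco subunits and the light-harvesting protein LHB1B2, most of them for LHB1B2. In the mutant under stress 5 rose and 1, the Rubisco large subunit, fell, where 3.42% of kept probe sets rose and 5.49% fell. In the wild-type 0 of the 7 were called by limma, where 3.07% rose and 4.19% fell. There 3 were higher at an unadjusted p under 0.05, a count with no background beside it. Without replicate 1 of the stressed wild-type, 2 of the LHB1B2 probe sets were called higher there, and without replicate 1 of the stressed mutant 1 was. The log2 of their summed intensity was 13.44 to 13.96 in the control arrays of both genotypes. It was 13.36 to 14.69 in the stressed wild-type and 14.99 to 15.56 in the stressed mutant, so that the stressed groups did not overlap. All 7 were among the genes that the study selected on these arrays for a genotype-dependent stress response. A difference between the genotypes was thus favoured by the choice and is a description. In the stressed mutant against the stressed wild-type, 1 of the 7 was called (0.708% of kept probe sets in either direction). It was Ta.3249.3.A1_at of LHB1B2, higher by 1.18 ± 0.26 log2 units (SE, limma adjusted p = 0.0315). That call was lost when any of several single arrays was left out. The Rubisco large subunit went the other way, at -1.62 ± 0.56, which did not pass the test (limma adjusted p = 0.147). The members had lower means in the stressed mutant than in the stressed wild-type. The part of the leaf makeup in these differences was not tested.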

How the data were processed

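The authors deposited one intensity on a linear scale per probe set and array, and the submitters' processing notes name MAS5. Its version is not given in the sources used here. The published work relied on RMA and on detection calls, neither of which was analysed here. The log2 of each intensity was taken with no offset, 111 control probe sets were left out and the percentile filter replaced detection calls (40.2% kept). A model of the 4 group means was fitted by limma (version 3.58.1, R 4.3.3), with an intensity trend in the variances and Benjamini-Hochberg adjusted p-values. Deviations were tested with Python 3.11.15 by enumerating all 1296 reorderings within groups. The model was tested on simulated data. Members and lists were chosen with earlier results of these data known. Named were the members, all probe sets of their clusters, the lists taken from the study's tables and the 5 study-named probe sets closest to isocitrate lyase. The annotation gave symbols for 1273 probe sets, and 0 of the members were among them, so names are those of the study's tables. No sequences or positions were used. The plots were arranged as a split plot with water as the main plot, and p-values measure the spread between these 3 arrays a group. The array was designed on bread wheat, and homeologous copies are not told apart.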

Additional observations from a re-analysis of the deposited data

How the results depend on the processing

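With 3 arrays a group and signals near background, precision was limited for isocitrate lyase and malate synthase. The median member SD between replicates was 0.99 log2 units. The count of members called between genotypes under control stayed at 0 under quantile normalization, the offset of 32, the replicate block, array weights, no filter, a filter on the highest mean (which kept 3 members), no intensity trend, the control arrays alone, the methods' t-test with Benjamini-Hochberg, no fold minimum and each array left out. It was 1 at an unadjusted p. Over all kept probe sets the count of calls was 0, against 53 with the control arrays alone, 71 with array weights, 222 at an unadjusted p, 2 with the offset and 12 without replicate 3 of the stressed mutant. At an adjusted p so few probe sets were called that a count of 0 members carries little information. Deviations of same-numbered arrays correlated between -0.186 and 0.089, and those of arrays with different numbers between -0.145 and 0.161. The replicate numbers thus gave no sign of pairing, but 3 arrays a group cannot show that there was none. With the replicate block the medians stayed at 2.53, 2.07, -1.22, -1.69 and -0.48. The counts of calls, of members under control and of the list of surrounding metabolism, did not change.

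With one array left out at a time, the members' median was 1.80 to 3.10 for stress in the wild-type, 1.51 to 2.76 in the mutant, -1.90 to -0.65 between genotypes under control and -2.25 to -0.96 under stress. The median interaction ran from -0.54 to 0.09, above 0 without replicate 3 of the stressed mutant and without replicate 1 of the mutant control (0.05). The correlations ran from 0.41 to 0.74, -0.67 to -0.10 and -0.80 to -0.36, and none passed the test under any of the alternatives. In the surrounding metabolism, 6 to 8 probe sets rose in the wild-type and 2 to 3 in the mutant. From 0 to 1 fell in the wild-type, PDC2 without replicate 1 of the stressed wild-type, and 1 to 2 fell in the mutant, PDC joining without replicate 1 or 2 of the control or replicate 3 under stress. BCKDHE1a lost its call in the mutant without replicate 1 or 2 of the stressed mutant, at 0.98 and 0.90, and MCCB in the wild-type without replicate 3 of the stressed wild-type. The probe set of MCCA lost its call without replicate 2 of the wild-type control, at 0.90, as did Ta.13280.2.A1_at, at 0.93, and the latter also without replicate 2 of the stressed wild-type, at 0.83. Of the leaf markers, the Rubisco small subunit lost its call in the mutant without replicate 3 of the mutant control or replicate 1 of the stressed mutant, and the large subunit without replicate 1 of the mutant control or replicate 2 of the stressed mutant. The added list alternatives were chosen after seeing the data.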
